A study of Mus musculus with 4 samples.

Results

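The DNA damage response and repair genes described here are 9 protein-coding genes, Atm, Atr, Chek1, Chek2, Trp53, Mdm2, Brca1, Palb2 and Brca2, out of 21938 protein-coding genes of the GENCODE vM21 annotation of the mouse genome (GRCm38). They were chosen by name, and every peak that lay in one of the genes or within 5 kb of its transcription start site (TSS, the 5′ end of the gene record) was collected from 4 peak lists. Chromatin accessibility (ATACseq, in which a transposase cuts open DNA) was profiled in 1 WT and 1 Uhrf1hepKO mouse liver. So was occupancy of the histone variant H2A.Z (ChIPseq on mononucleosomes released by micrococcal nuclease). It was not established whether both assays of a genotype used the same mouse. Below, the WT liver and the Uhrf1hepKO liver stand for the libraries of each genotype. The mice were C57Bl/6 males of 8-12 weeks on a normal diet whose livers were taken in the morning. WT mice carried the floxed Uhrf1 alleles alone (Uhrf1-fl/fl). Uhrf1hepKO mice carried the same alleles with Alb:Cre, a recombinase driven by the albumin promoter, which is active in hepatocytes. The whole liver also holds other cells, and the lists do not show in which cells the alleles were recombined. With 1 library in each group no test between genotypes was possible, and the intervals given below cover counting error only. Neither assay measures RNA, and in whole tissue a change in the share of a cell type and a change within its cells cannot be told apart.

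These genes form a relay from broken DNA to cell-cycle arrest and repair. Atm and Atr are the kinases that sense DNA breaks and stalled replication forks, Chek2 and Chek1 are the checkpoint kinases they activate, p53 (encoded by Trp53) is the transcription factor that the pathway stabilizes, and Mdm2 is the ubiquitin ligase that keeps p53 low. Brca1, Palb2 and Brca2 act in homologous recombination, where Palb2 joins Brca1 to Brca2. Hepatocytes of an adult liver seldom divide, and they use this pathway when the liver regenerates or is exposed to toxins. H2A.Z is typically found in the nucleosomes on either side of an open promoter, and Uhrf1 is needed to copy DNA methylation after replication.

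Most of these promoters were rich in CpGs, and many were shared with another gene. Within 500 bp on either side of the TSS the 9 genes held a median of 60 CpGs, from 37 at Trp53 to 96 at Mdm2. The median of all protein-coding genes was 41. Trp53 and Chek1 (39 CpGs) were below that median, and the other 7 genes were above it. Of the 9 genes, 5 lay head to head with another protein-coding gene whose TSS was within 1 kb on the opposite strand, against 6.78% of all protein-coding genes. The partners were Npat, a coactivator of histone genes, 307 bp from Atm, Hscb, a cochaperone of iron-sulfur cluster assembly, 202 bp from Chek2, Wrap53, a telomerase and Cajal body protein, 104 bp from Trp53, Nbr1, an autophagy receptor, 194 bp from Brca1, and Dctn5, a dynactin subunit, 56 bp from Palb2. A peak in such a gap lies at both promoters and cannot be assigned to 1 of them.

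The DNA just upstream of 7 of the genes is shown because the peaks described below lay over it or left it uncovered. It was read 5′ to 3′ on the strand of the gene from the RefSeq FASTA of GRCm38 and ends at the base before the TSS. It fills the whole gap to the TSS of the partner at Chek2, Trp53, Brca1 and Palb2, and it is limited to 250 bp at Atm and to 150 bp at Mdm2 and Brca2. No annotated exon overlaps these stretches. Capitals mark matches on either strand to CCAAT (the NFY motif), GGGCGG (SP1), TTTCCCGC (E2F) and TGACGTCA (the cAMP response element, CRE).
Atm (chr9:53536741-53536990, minus strand): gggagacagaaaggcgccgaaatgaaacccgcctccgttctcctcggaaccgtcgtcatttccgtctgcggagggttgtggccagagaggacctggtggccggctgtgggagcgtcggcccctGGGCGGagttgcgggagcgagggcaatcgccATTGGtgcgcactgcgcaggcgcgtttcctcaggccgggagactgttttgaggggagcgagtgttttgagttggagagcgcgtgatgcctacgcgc
Chek2 to Hscb (chr5:110839778-110839978, plus strand): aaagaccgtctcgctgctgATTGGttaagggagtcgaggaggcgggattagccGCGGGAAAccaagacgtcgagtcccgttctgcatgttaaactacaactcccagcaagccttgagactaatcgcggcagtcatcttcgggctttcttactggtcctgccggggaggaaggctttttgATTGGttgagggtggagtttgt
Trp53 to Wrap53 (chr11:69580256-69580358, plus strand): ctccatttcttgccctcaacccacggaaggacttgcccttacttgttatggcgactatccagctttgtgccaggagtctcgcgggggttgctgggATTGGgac
Mdm2 (chr10:117710759-117710908, minus strand): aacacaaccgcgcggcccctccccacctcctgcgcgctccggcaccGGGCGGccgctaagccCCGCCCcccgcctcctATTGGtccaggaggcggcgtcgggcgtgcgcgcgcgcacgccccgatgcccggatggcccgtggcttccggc
Brca1 to Nbr1 (chr11:101551956-101552148, minus strand): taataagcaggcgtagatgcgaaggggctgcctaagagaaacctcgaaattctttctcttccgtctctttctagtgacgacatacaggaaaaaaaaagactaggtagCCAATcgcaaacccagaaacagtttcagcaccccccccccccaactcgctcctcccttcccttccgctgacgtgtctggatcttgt
Palb2 to Dctn5 (chr7:122132986-122133040, minus strand): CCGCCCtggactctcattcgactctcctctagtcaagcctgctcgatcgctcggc
Brca2 (chr5:150522480-150522629, plus strand): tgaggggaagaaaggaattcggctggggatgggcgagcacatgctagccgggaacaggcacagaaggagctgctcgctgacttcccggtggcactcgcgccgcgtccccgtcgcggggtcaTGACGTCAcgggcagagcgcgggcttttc

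Of the stretches shown, those of Chek2 (201 bp) and Palb2 (55 bp) and the 250 bp of Atm lay wholly under an ATACseq peak in both livers. The 193 bp between Brca1 and Nbr1 lay under the ATACseq peak of the Uhrf1hepKO liver and outside that of the WT liver. The 103 bp between Trp53 and Wrap53 lay under no peak of any of the 4 lists. CCAAT matched in the 250 bp before to 50 bp after the TSS of 6 of the 9 genes (Atm, Chek2, Trp53, Mdm2, Brca1 and Palb2) and of 39.0% of all protein-coding genes. GGGCGG matched in 4 of the 9 genes (Atm, Atr, Mdm2 and Palb2) and in 43.0% of all. The rarer words were the E2F words TTTCCCGC and TTTGGCGC in Chek2 and Brca2 (439 of all 21938 promoters), TGACGTCA 29 bp before the TSS of Brca2 (2.43%), the NRF1 word GCGCATGC in Atm (3.71%) and the ETS word CCGGAAGT in Palb2 (4.70%). The YY1 word AAGATGGC matched in none of the 9 genes and in 2.92% of all. A pair of p53 decamers at most 13 bp apart lay within 1 kb of the TSS in none of them and in 0.474% of all. Such a search misses sites that depart from the searched pattern, so it does not show that these genes lack a p53 site.

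In the WT liver 7 of the 9 genes had an ATACseq peak at or near the TSS, no further than 5 kb from it (77.8%, Wilson 95% interval 45.3 to 93.7), against 30.2% of all protein-coding genes. In the Uhrf1hepKO liver it was 6 of 9 (66.7%, interval 35.4 to 87.9), against 27.9% of all. Trp53 and Brca2 had no ATACseq peak in either list, and Mdm2 had one in the WT list only. The WT background rose with the CpGs of the promoter and was 18.8% in the second quartile of protein-coding genes by CpGs, 47.0% in the third and 50.2% in the fourth. The genes with a WT peak were 1 of the 2 members in the second quartile (Chek1, not Trp53), 3 of the 4 in the third (Chek2, Brca1 and Palb2, not Brca2) and 3 of the 3 in the fourth (Atm, Atr and Mdm2).

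All 9 genes had an H2A.Z peak in this window in both livers (100%, interval 70.1 to 100). The background was 52.8% of protein-coding genes in the WT list, 51.0% in the Uhrf1hepKO list and 48.8% in both. Among genes of like CpG number the WT background was 44.7% in the second quartile, 75.5% in the third and 76.8% in the fourth. The 9 genes held 35 H2A.Z peaks in each liver, of which 26 in WT and 29 in Uhrf1hepKO were within 5 kb of the TSS. They held 8 ATACseq peaks in WT and 7 in Uhrf1hepKO, and in each list all but 1, an intronic peak of Palb2, were within 5 kb.

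**Figure D1:**
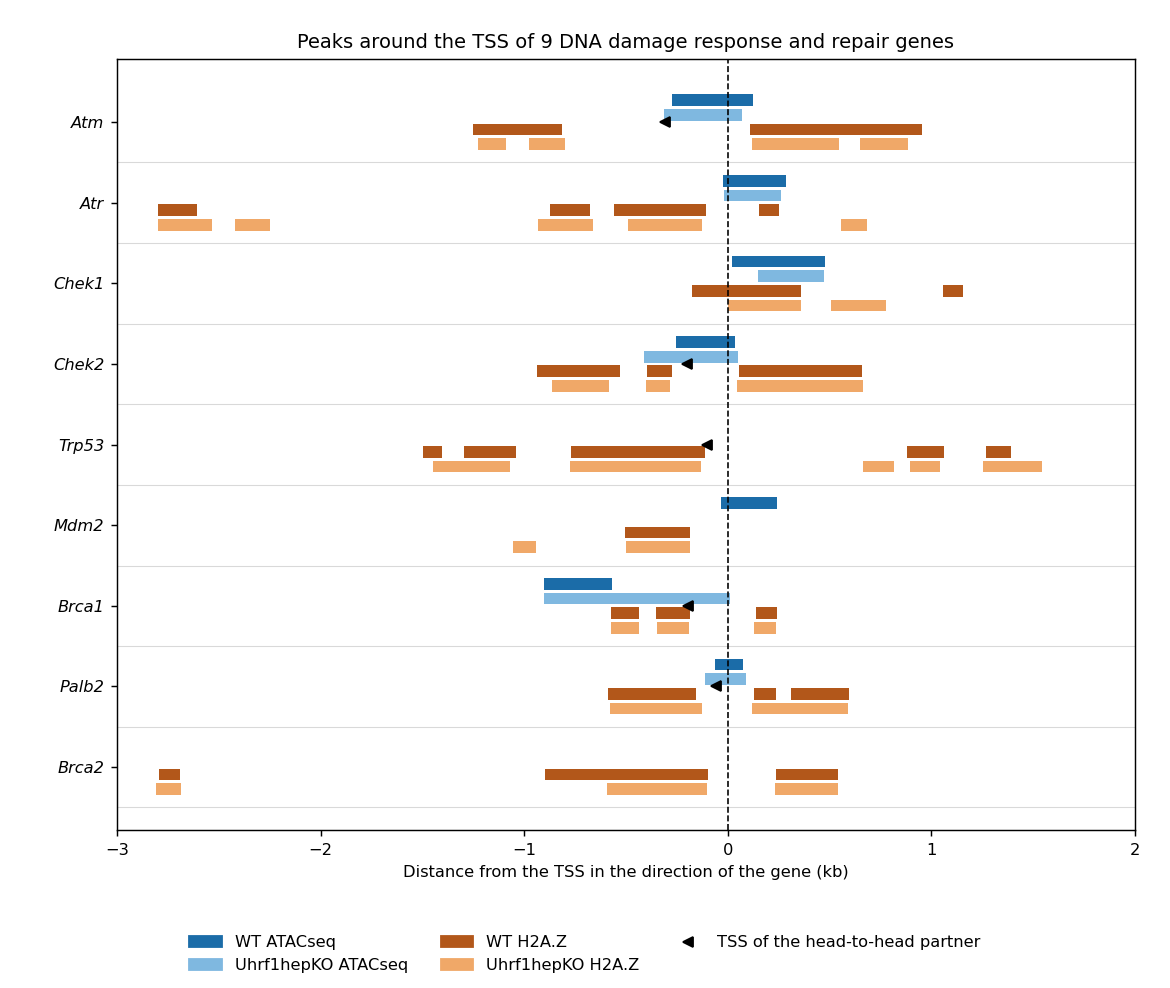
Every peak within 5 kb of the TSS of the 9 genes, drawn by distance from the TSS in kb in the direction of each gene, with 1 row of bars per library and an arrowhead at the TSS of a head-to-head partner. All 9 genes have H2A.Z peaks in both livers, and Trp53 and Brca2 have no ATACseq peak.

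The values of a peak are its fold and, since the lists were not scaled to each other, its percentile by fold within its list. The fold is the caller's estimate of how many times the reads of the peak exceeded the background. At H2A.Z summits the fold also gave the number of reads at the summit, for which an exact Poisson interval is given.

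Atm (chr9:53439149-53536740, minus strand), the kinase that answers to chromosome breaks, had 1 ATACseq peak in each liver, and it covered the TSS and most of the gap to Npat. In WT it ran (upstream positions are negative) from -276 to 123 bp of the TSS with a fold of 6.73 (percentile 94.4). In Uhrf1hepKO it ran from -311 to 70 bp with a fold of 5.89 (percentile 90.3). H2A.Z lay on either side of this open stretch in both livers. In the first intron a WT peak of 845 bp had its summit 480 bp downstream with 28 reads (interval 18.6 to 40.5), where the Uhrf1hepKO list had 2 shorter peaks with summits at 460 bp (41 reads, interval 29.4 to 55.6) and 724 bp (25 reads, interval 16.2 to 36.9). Upstream, within Npat, a WT summit lay at -1162 bp with 21 reads and Uhrf1hepKO summits lay at -1145 bp with 22 reads and at -963 bp with 14 reads. Each stretch that was 1 peak in WT was thus 2 peaks in Uhrf1hepKO.

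Atr (chr9:95857597-95951781, plus strand), the kinase that answers to single-stranded DNA at stalled forks, had an ATACseq peak over the TSS and the first exon in both livers. The fold was 4.72 in WT (percentile 64.0) and 4.03 in Uhrf1hepKO (percentile 49.2), both near the middle of their lists. The highest H2A.Z summit was upstream, at -207 bp with 33 reads in WT and at -184 bp with 35 reads in Uhrf1hepKO. A further summit lay at -753 bp in WT (28 reads, interval 18.6 to 40.5) and at -757 bp in Uhrf1hepKO (23 reads, interval 14.6 to 34.5). Downstream the livers had different weak peaks, at 171 bp in the first exon in WT and at 608 bp in the first intron in Uhrf1hepKO, with 15 reads each (interval 8.4 to 24.7). A distal site was marked in both, with summits at -2753 bp in WT (14 reads) and at -2578 bp and -2331 bp in Uhrf1hepKO (20 and 14 reads).

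Chek1 (chr9:36708482-36727065, minus strand), the checkpoint kinase downstream of Atr, had the H2A.Z peak and the ATACseq peak on the same DNA. The ATACseq peak ran from 21 to 478 bp in WT (fold 4.57, percentile 59.1) and from 148 to 473 bp in Uhrf1hepKO (fold 3.99, percentile 47.7). The record of Chek1 starts with a noncoding transcript, and its main coding transcript starts 407 bp further on, so the peaks lay over and just upstream of the coding start. Of the ATACseq peak, 73.8% lay under H2A.Z in WT and 64.4% in Uhrf1hepKO. The H2A.Z summit lay 276 bp from the TSS in WT with 44 reads (interval 32.0 to 59.1, percentile 97.8) and 250 bp from it in Uhrf1hepKO with 47 reads (interval 34.5 to 62.5, percentile 97.4). A lower peak downstream was at 1086 bp in WT (17 reads) and at 587 bp in Uhrf1hepKO (26 reads), and these did not overlap a peak of the other liver.

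Chek2 (chr5:110839979-110874145, plus strand), the checkpoint kinase downstream of Atm, and Brca1 were the genes whose ATACseq peak near the TSS had a higher percentile in the Uhrf1hepKO list than in the WT list. The Chek2 peak ran from -253 to 34 bp in WT (fold 5.66, percentile 84.2) and from -410 to 50 bp in Uhrf1hepKO (fold 6.05, percentile 91.6). H2A.Z lay on both sides of the TSS in both livers. Downstream the summit was at 131 bp with 34 reads in WT (interval 23.5 to 47.5) and at 125 bp with 37 reads in Uhrf1hepKO (interval 26.1 to 51.0). Upstream, in Hscb, the summits were at -319 and -628 bp in WT (22 and 23 reads) and at -337 and -787 bp in Uhrf1hepKO (22 and 23 reads). The wider Uhrf1hepKO ATACseq peak took in the H2A.Z peak at -337 bp, so that 26.7% of it lay under H2A.Z, against 0% in WT. The stretch free of H2A.Z peaks around the TSS was 327 bp in WT and 331 bp in Uhrf1hepKO. Some 19 kb into the gene, in intron 7, peaks of the livers stood next to each other without overlap, with low WT summits at 19094 and 19278 bp (percentiles 1.2 and 8.9) and a Uhrf1hepKO summit above the median of its list at 19603 bp (24 reads, percentile 59.0).

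Trp53 (chr11:69580359-69591873, plus strand), which encodes p53, had no ATACseq peak in either liver and 5 H2A.Z peaks in each. The nearest ATACseq peak was 52356 bp downstream in WT and 52397 bp downstream in Uhrf1hepKO, at the TSS of Fxr2. The absence of a listed peak does not show closed chromatin, since a list holds only what passed the caller's threshold. The main H2A.Z summit lay on the Wrap53 side, at -203 bp with 38 reads in WT (interval 26.9 to 52.2) and at -231 bp with 39 reads in Uhrf1hepKO (interval 27.7 to 53.3). On the Trp53 side H2A.Z began further away, with a WT summit at 972 bp (26 reads, interval 17.0 to 38.1) and Uhrf1hepKO summits at 741 bp, where the reads could not be recovered, and at 961 bp (36 reads, interval 25.2 to 49.8). The stretch around the TSS without an H2A.Z peak was 992 bp in WT and 797 bp in Uhrf1hepKO, and in WT it was the longest of the 6 genes with summits on both sides within 1 kb. All of these downstream peaks lay in the first intron.

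Mdm2 (chr10:117688875-117710758, minus strand), the ubiquitin ligase of p53, was the gene with the fewest peaks. Its ATACseq peak in WT ran from -32 to 240 bp with a fold of 4.17, below the median of its list (percentile 43.9), and a −log10 q of 2.41. The Uhrf1hepKO list had no ATACseq peak there, the nearest being 35566 bp upstream at the TSS of Slc35e3. Of all protein-coding genes, 7.19% had an ATACseq peak within 5 kb in the WT list only and 4.85% in the Uhrf1hepKO list only, beside 1 and 0 of the 9 genes. H2A.Z at the Mdm2 promoter did not follow that difference. Its summit lay at -262 bp in WT with 27 reads (interval 17.8 to 39.3) and at -268 bp in Uhrf1hepKO with 30 reads (interval 20.2 to 42.8), and a second, weaker Uhrf1hepKO summit was at -994 bp with 19 reads. Mdm2 also has a p53-responsive promoter in its first intron, and no H2A.Z peak lay downstream of the TSS in either liver.

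Brca1 (chr11:101488764-101551955, minus strand), a ubiquitin ligase that promotes homologous recombination, had the most peaks and, within 5 kb of its TSS, the highest H2A.Z peak of the 9 genes. That peak lay inside Nbr1, beyond the 194 bp gap. Its summit was at -274 bp in WT with 48 reads (interval 35.4 to 63.6) and at -277 bp in Uhrf1hepKO with 53 reads (interval 39.7 to 69.3), at percentile 99.0 of both lists. Next to it, also inside Nbr1, were summits at -503 bp with 42 reads in WT and at -500 bp with 47 reads in Uhrf1hepKO. On the Brca1 side the summits were lower, at 208 bp with 19 reads in WT (percentile 41.6) and at 177 bp with 24 reads in Uhrf1hepKO (percentile 59.0). These positions differed between the livers by 3, 3 and 31 bp. The ATACseq peak differed more in its extent. In WT it ran from -902 to -571 bp, inside Nbr1 (fold 4.52, percentile 57.4), and in Uhrf1hepKO it started at the same base and ran on to 10 bp past the TSS of Brca1 (fold 4.27, percentile 58.7), so that it was 332 bp wide in WT and 913 bp wide in Uhrf1hepKO.

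Brca1 also carried H2A.Z deep in the gene. A cluster of 3 peaks in intron 11 was present in both livers, with summits at 32223, 32677 and 33027 bp in WT (25, 29 and 28 reads) and at 32230, 32565 and 33009 bp in Uhrf1hepKO (24 and 35 reads at the first and second, not recovered at the last). These peaks stood at percentiles 71.2 to 81.9 of the WT list and 59.0 to 87.7 of the Uhrf1hepKO list, above the median. Exon 10, a coding exon, held lower peaks, at 27463 and 27715 bp in WT (20 and 16 reads) and at 27136 and 27788 bp in Uhrf1hepKO (16 reads each), and only the pair at 27715 and 27788 bp overlapped. A peak in intron 2 at 8350 bp (16 reads, percentile 20.3) was listed in WT only. None of these internal peaks had an ATACseq peak beside it within Brca1.

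**Figure D2:**
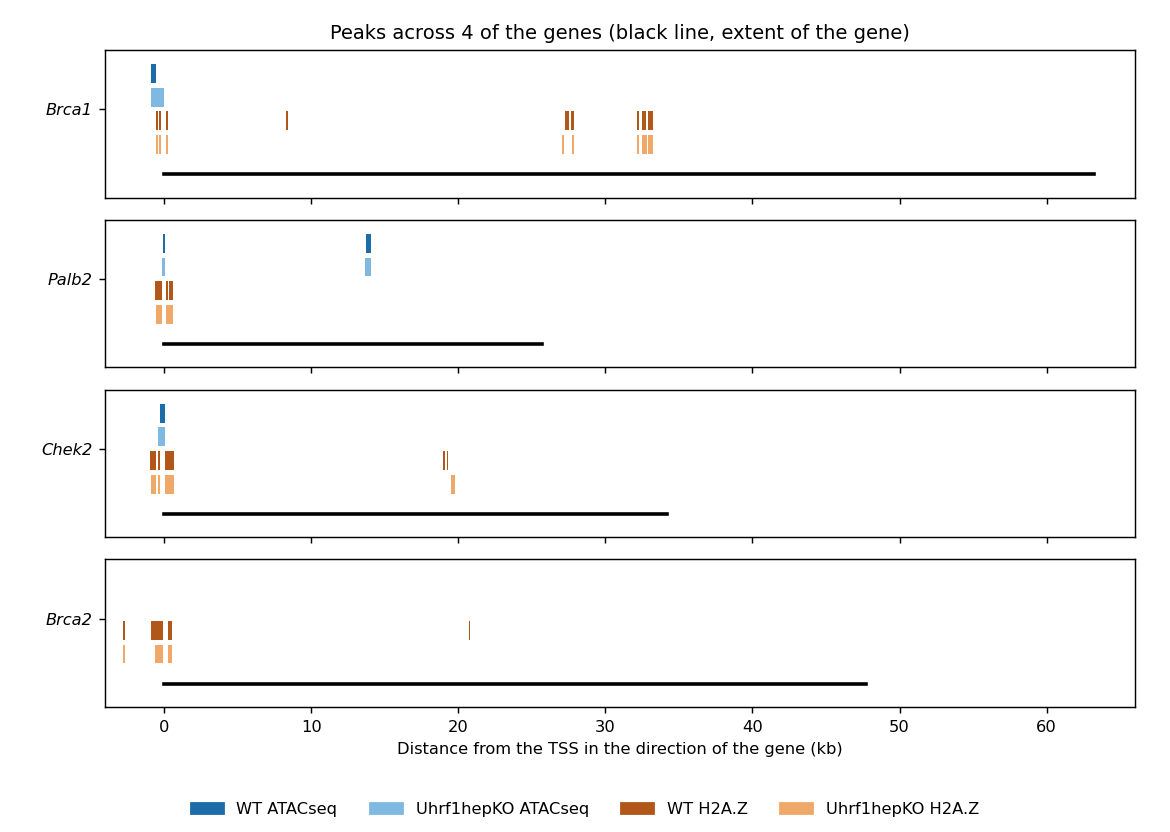
Peaks across Brca1, Palb2, Chek2 and Brca2 by distance from the TSS in kb, with 1 row of bars per library above a black line for the extent of the gene. Brca1 carries H2A.Z peaks near 27 and 33 kb in both livers, and Palb2 an ATACseq peak near 14 kb in both.

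Palb2 (chr7:122107262-122132985, minus strand), the protein that bridges Brca1 and Brca2, had the highest ATACseq peak of the 9 genes in both livers. In WT the peak ran from -64 to 75 bp with a fold of 10.84, rank 81 of 10582 peaks (percentile 99.2). In Uhrf1hepKO it ran from -112 to 87 bp with a fold of 6.85, rank 454 of 10764 peaks (percentile 95.8). It covered the whole 55 bp between Palb2 and Dctn5, and no part of it lay under H2A.Z in either liver. The H2A.Z summits stood on both sides, at -374 bp with 34 reads in WT (interval 23.5 to 47.5) and at -371 bp with 41 reads in Uhrf1hepKO (interval 29.4 to 55.6), and downstream at 536 bp with 32 reads and at 517 bp with 34 reads. A separate WT peak at 196 bp (26 reads) was part of the longer downstream peak in Uhrf1hepKO.

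Palb2 was also the only one of the 9 genes with an ATACseq peak beyond 5 kb. It lay in intron 7, from 13723 to 14086 bp in WT (fold 4.34, percentile 51.0) and from 13654 to 14053 bp in Uhrf1hepKO (fold 4.38, percentile 62.3). It held 0 CpGs in both livers, where the peak at the TSS held 14 in WT and 18 in Uhrf1hepKO, and it had no H2A.Z peak beside it.

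Brca2 (chr5:150522630-150570329, plus strand), the partner of Palb2 in homologous recombination, had strong H2A.Z on both sides of the TSS and no ATACseq peak in either liver. Upstream the summit was at -181 bp with 44 reads in WT (interval 32.0 to 59.1, percentile 97.8) and at -346 bp with 45 reads in Uhrf1hepKO (interval 32.8 to 60.2, percentile 96.5). Downstream it was at 353 bp with 31 reads in WT (interval 21.1 to 44.0) and at 360 bp with 33 reads in Uhrf1hepKO (interval 22.7 to 46.3), in the first exon. Between the flanking peaks 332 bp in WT and 334 bp in Uhrf1hepKO were free of H2A.Z peaks, close to the 328 and 322 bp at Brca1 and the 327 and 331 bp at Chek2. The other genes differed, with 264 and 682 bp at Atr, 283 and 244 bp at Palb2 and 992 and 797 bp at Trp53. At Atm it was 917 bp in Uhrf1hepKO. A distal summit at -2725 bp in WT (21 reads) and -2757 bp in Uhrf1hepKO (28 reads) was shared. In exon 11 a WT peak with its summit at 20735 bp had a fold of 2.83, near the foot of its list (percentile 0.8), and no counterpart.

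**Figure D3:**
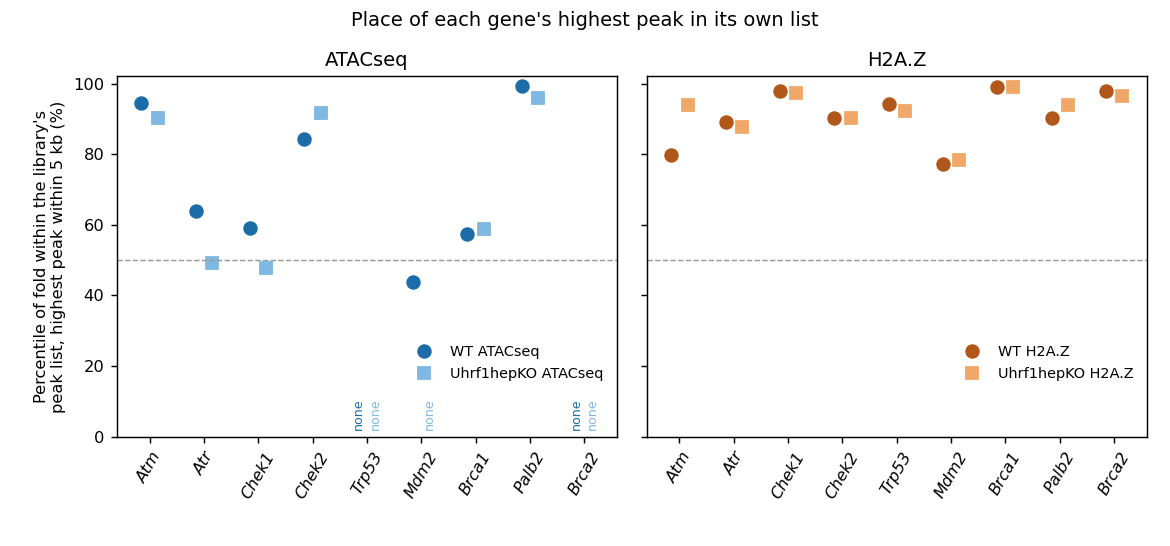
Percentile by fold, within the library's own list, of the highest peak within 5 kb of the TSS of each gene, with circles for WT, squares for Uhrf1hepKO and a dashed line at the median of the list. These highest H2A.Z peaks lie between percentile 77.2 and 99.0, and the highest ATACseq peaks between 43.9 and 99.2. The highest of several peaks per gene is not a like measure to the median of all peaks. Of all 35 H2A.Z peaks of the 9 genes, 24 were above the median fold in WT and 24 in Uhrf1hepKO.

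The order of the genes differed between the assays. By the highest ATACseq peak in WT the order was Palb2, Atm, Chek2, Atr, Chek1, Brca1 and Mdm2, and in Uhrf1hepKO it was Palb2, Chek2, Atm, Brca1, Atr and Chek1. By reads at the highest H2A.Z summit Brca1 led in both livers with 48 and 53 reads, followed by Chek1 (44 and 47) and Brca2 (44 and 45), and Mdm2 was last in Uhrf1hepKO with 30 reads and in WT with 27 reads, next to Atm with 28. The Poisson intervals of neighbors in this order overlapped throughout. At Brca1, Trp53 and Palb2 the highest summit lay inside the head-to-head partner. The summit on the Brca1 side of its TSS had 19 reads in WT and 24 in Uhrf1hepKO. With the summit inside Nbr1 counted, Brca1, with a middling ATACseq peak, was among the highest for H2A.Z, as was Brca2, with no ATACseq peak.

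H2A.Z summits lay on both sides of the TSS within 1 kb in 6 of the 9 genes in WT (Atr, Chek2, Trp53, Brca1, Palb2 and Brca2) and in 7 in Uhrf1hepKO (the same and Atm). Of all protein-coding genes 22.8% had this arrangement in WT and 20.9% in Uhrf1hepKO. Mdm2 had summits on 1 side only. Chek1 had them on 1 side of the noncoding start of its record, whereas around its main coding start they lay on both sides in both livers, at -131 and 679 bp in WT and at -157 and 180 bp in Uhrf1hepKO. Atm changed class because its upstream Uhrf1hepKO summit at -963 bp fell just inside 1 kb and its WT summit at -1162 bp fell outside. Where an ATACseq peak lay over the TSS, summits within 1 kb on both sides of its center were found in 3 of 5 genes in WT (Atr, Chek2 and Palb2, not Atm or Mdm2), against 59.7% of all protein-coding genes with such a peak. In Uhrf1hepKO it was 5 of 5 (Atm, Atr, Chek2, Brca1 and Palb2), against 54.7%.

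Most peaks of the 9 genes were present in both livers. In ATACseq, 7 of 8 WT peaks overlapped a Uhrf1hepKO peak by at least 1 bp (87.5%, interval 52.9 to 97.8), against 61.3% of all WT peaks, and 7 of 7 Uhrf1hepKO peaks overlapped a WT peak (100%, interval 64.6 to 100), against 60.3% of all. In H2A.Z, 28 of 35 WT peaks overlapped a Uhrf1hepKO peak (80.0%, interval 64.1 to 90.0), against 70.0% of all, and 28 of 35 Uhrf1hepKO peaks overlapped a WT peak (80.0%), against 75.6% of all. Several of these peaks came from 1 gene, and in each list most were above the median fold. The background held peaks of any fold and place. The intervals therefore do not test the shares against the background. Of the 7 WT H2A.Z peaks without a partner, 5 were more than 5 kb from the TSS, in Chek2 (2), Brca1 (2) and Brca2 (1). Of the 7 such Uhrf1hepKO peaks 2 were that far away, in Chek2 and Brca1, and 5 were nearer, in Atr (2), Chek1, Trp53 and Mdm2.

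At the 28 WT H2A.Z peaks that overlapped a Uhrf1hepKO peak, the summits of the 2 livers were a median of 18.5 bp apart, and 21 were within 50 bp. The widest shift was 321 bp, at Palb2, where 2 WT peaks met 1 Uhrf1hepKO peak. Reads could be compared at 27 of them, and all 27 pairs of Poisson intervals overlapped. The Uhrf1hepKO summit had more reads in 20, fewer in 4 and as many in 3. At Trp53 and at Palb2 the same Uhrf1hepKO peak was compared with 2 WT peaks, so the comparisons were not all separate. Over all overlapping H2A.Z peaks of the lists 60.7% had more reads at the Uhrf1hepKO summit, and the caller's background was also higher there, at 3.30 against 3.10 reads. These counts are not scaled for depth.

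**Figure D4:**
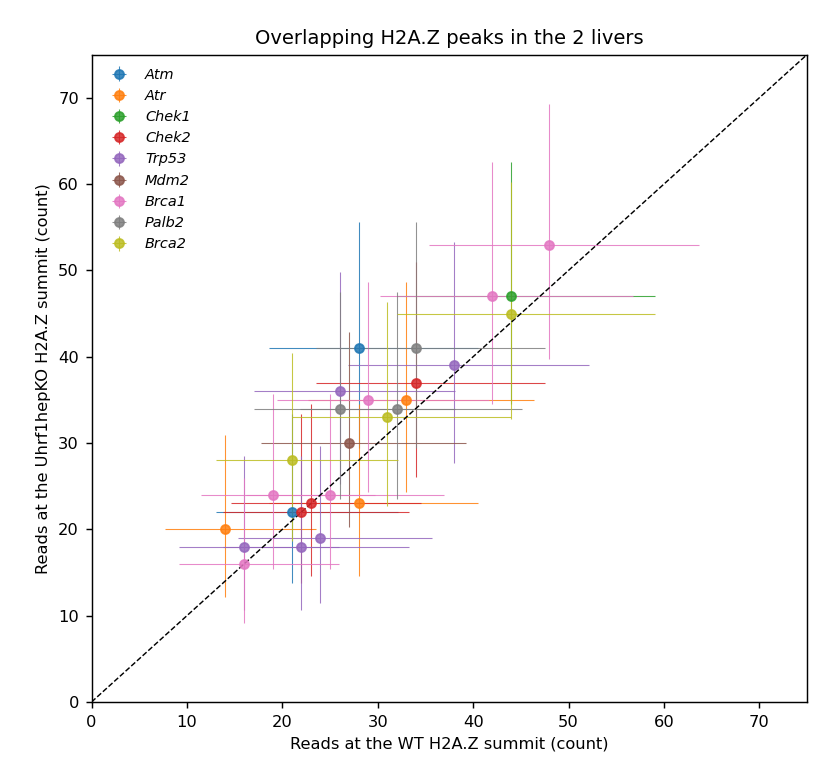
Reads at the summits of overlapping H2A.Z peaks in the WT (horizontal) and Uhrf1hepKO (vertical) liver, colored by gene, with exact Poisson 95% intervals as bars and a dashed line of equal counts. The intervals of all 27 pairs overlap. The highest point, with 48 and 53 reads, is the summit -274 bp from the TSS of Brca1, inside Nbr1.

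The pattern at the 9 genes was set beside that of 94 other genes of DNA damage signaling and repair, of which all 94 were found in the annotation. ATACseq peaks stood within that distance of 60 of them in WT (63.8%, interval 53.8 to 72.8) and of 56 in Uhrf1hepKO (59.6%, interval 49.5 to 68.9). H2A.Z peaks did so at 82 in WT (87.2%, interval 79.0 to 92.5) and of 84 in Uhrf1hepKO (89.4%, interval 81.5 to 94.1). These genes too were rich in CpGs, with a median of 65.5 around the TSS. The ATACseq peak was listed in WT only for 13 (13.8%) and in Uhrf1hepKO only for 9 (9.57%). Of all protein-coding genes it was the 7.19% and 4.85% given above. These shares have unlike bases, since only 30.2% of all protein-coding genes had an ATACseq peak in WT and 27.9% in Uhrf1hepKO. Genes that more often have a peak can more often have it in a single list. The higher shares therefore do not show that these genes differed more often between the livers. The H2A.Z peak was listed in WT only for 2 (2.13%) and in Uhrf1hepKO only for 4 (4.26%), against 3.95% and 2.19% of all and none of the 9 genes. The bases were unlike here too, with an H2A.Z peak at 52.8% of all protein-coding genes in WT and 51.0% in Uhrf1hepKO.

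By role, the p53 axis, which holds targets and partners of p53, had an ATACseq peak at 7 of 16 genes in WT and 9 in Uhrf1hepKO and an H2A.Z peak at 11 in each. Sensors and mediators had ATACseq peaks at 11 of 19 genes in WT and 12 in Uhrf1hepKO and H2A.Z peaks at 16 and 17. In homologous recombination, the group that Brca1, Palb2 and Brca2 serve, ATACseq peaks stood at 7 of 13 genes and H2A.Z peaks at 12 in both livers. The Fanconi anemia genes, which repair crosslinks, had ATACseq peaks at 8 of 12 in WT and 6 in Uhrf1hepKO, and H2A.Z peaks at 10 and 11. End joining and mismatch repair each had ATACseq peaks at 6 of 7 genes in WT and 5 in Uhrf1hepKO. Their H2A.Z peaks stood at 6 and at 7 genes in each liver. Base excision repair had ATACseq peaks at 7 of 9 genes in WT and 5 in Uhrf1hepKO, nucleotide excision repair at 8 of 11 and 7, and all genes of both groups had an H2A.Z peak in both livers. The Wilson intervals of the 8 groups overlapped one another in each library.

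The highest WT ATACseq peaks among these genes were at Trp53bp1, a reader of chromatin at breaks (fold 8.58), at Fancl, the ligase of the Fanconi core complex (fold 8.54), and at Xpc, a sensor of bulky lesions (fold 8.31). All were below the 10.84 of Palb2 in the same list. The highest WT H2A.Z peaks were at Mdm4, the relative of Mdm2 that binds p53 (59 reads, 4949 bp from its TSS), at Etaa1, an activator of Atr (54 reads), and at Xrcc4, an end-joining factor (53 reads).

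**Figure D5:**
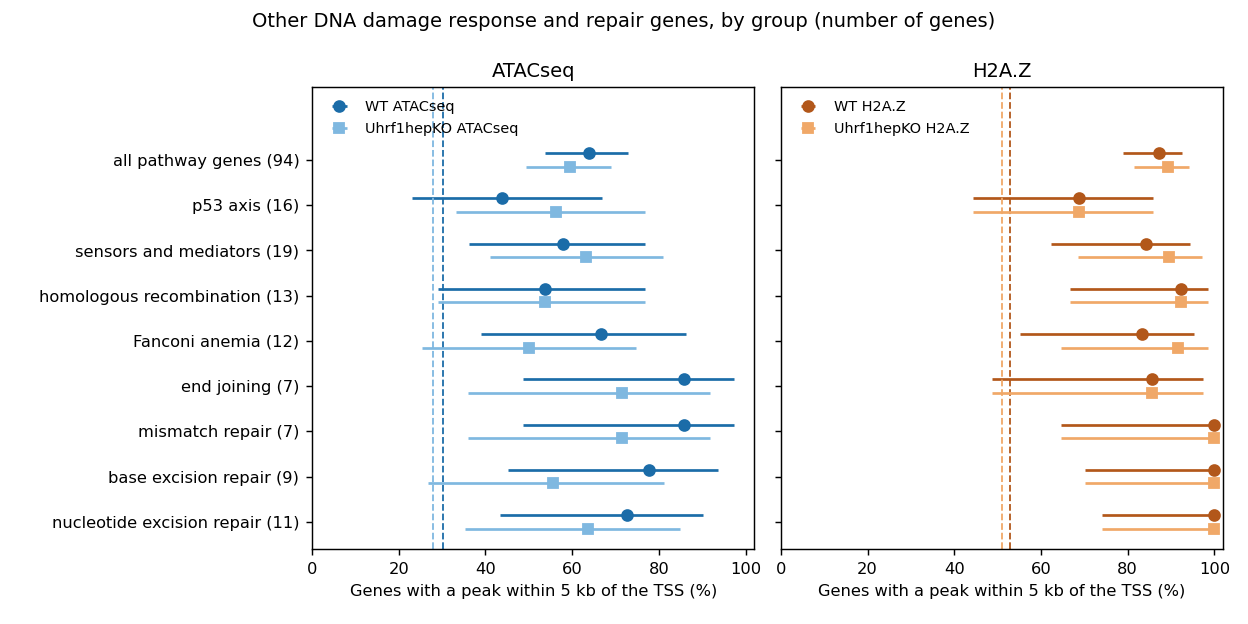
Percentage of 94 other DNA damage response and repair genes, by group, that had a peak no further than 5 kb from the TSS in each library, with Wilson 95% intervals and dashed lines for all protein-coding genes. The points for all 94 genes lie at 63.8% and 59.6% for ATACseq and at 87.2% and 89.4% for H2A.Z, to the right of the dashed lines.

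The lists held few peaks at genes that mark liver cell types, so they give little check of the tissue. Among 8 hepatocyte markers, ATACseq peaks within 5 kb stood at 0 in WT and at 2 in Uhrf1hepKO, and H2A.Z peaks at 2 and 1. Hnf4a, Apoa1, Cps1, Tat and Cyp2e1 had no peak within 5 kb of the TSS in any list. In the same window, markers of endothelial (5 genes) and stellate cells (4) had none in any list. Those of Kupffer cells (5), cholangiocytes (4) and lymphocytes (4) had a peak at 0 or 1 gene in each list. The rest of the marker genes was not searched. Uhrf1 itself had 1 peak in each of the 4 lists, and peak lists do not show whether its floxed exons were removed. The lists held between 10582 and 51450 peaks on the chromosomes used, with median folds of 4.05 to 5.35, and the median H2A.Z peak had 21 reads at its summit in WT and 23 in Uhrf1hepKO.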

How the data were processed

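The peak lists, 1 per genotype and assay, were made by the authors. Reads trimmed with Trimmomatic (FastQC 0.11.5) were aligned with BWA-MEM (GRCm38.p4), passed through Picard and given to MACS2 library by library. The version of MACS2, whether H2A.Z was called in narrow mode, and any control library, are not given in the sources used here. Each deposited peak carries a fold, the ratio of pileup to background (averaged over the peak for ATACseq, at the summit for H2A.Z). Each also carries a deposited −log10 p-value and −log10 q-value, and a deposited score of 10 times the latter. For most H2A.Z peaks the folds lay on the steps of 1 constant background per list, 3.10 reads in WT and 3.30 in Uhrf1hepKO. The authors scaled no value between libraries, and total read depth is unknown.

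Autosomes, X and Y were used, with GENCODE vM21 and 1-based positions. Overlap required 1 bp. H2A.Z reads at a summit were recovered from the deposited fold, which steps by 1 read (tolerance 0.02 of a read, pseudocount 1), for 93.6% of WT and 91.4% of Uhrf1hepKO peaks. Shares have Wilson and reads exact Poisson 95% intervals. Sequence came from the RefSeq GRCm38.p6 FASTA, whose primary chromosomes keep the GRCm38.p4 coordinates. Overlap was tested on simulated data. Read recovery was tested on simulated folds that all lay on the step, which not all deposited folds did. There the step came from all folds, whereas for the deposited lists it came from the most common ones, so the test does not cover the recovery as applied. Python 3.11.15, pandas 2.3.3, numpy 2.4.6, scipy 1.17.1, pysam 0.24.0 and matplotlib 3.10.9 were used.

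The 9 genes, the 94 other pathway genes and the marker lists were chosen with earlier results of these data known. All 9 genes, their head-to-head partners and Uhrf1 are named, and of the 94 genes the 3 with the highest fold of a WT ATACseq peak and the 3 with the highest of a WT H2A.Z peak. Single markers and the genes nearest to a distant peak were named after their values were seen. Alternatives were other windows, transcript starts, thresholds and definitions of overlap. The RNA, DNA methylation and other marks of the study were not analysed here.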

Additional observations from a re-analysis of the deposited data

How the results depend on the processing

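The counts of genes with a peak, the counts of peaks and the shares of overlapping peaks were recomputed with windows of 1 kb and 500 bp, with the start of any annotated transcript, with the center or summit in the window, without the peaks whose fold was under the median of their list, without those of −log10 q under 2, and with other definitions of overlap. Of 68 such recomputed values, 65 stayed within 1.5 times the count or within the interval of the share, and 3 moved out of it. With up to 500 bp allowed between peaks, 94.3% of the WT and 100% of the Uhrf1hepKO H2A.Z peaks of the 9 genes had a counterpart, in place of 80.0%. With only peaks within 5 kb of the TSS the WT share was 92.3% and the Uhrf1hepKO share 82.8%. The limit of 1.5 times is wide for small counts. Without peaks under the median fold, the genes with a Uhrf1hepKO ATACseq peak fell from 6 to 4, which stayed within it. Of 216 counts for single genes 18 moved by more than 1.5 times. Counts of 0, as for ATACseq at Trp53 and Brca2, could not rise under the stricter settings, so their agreement there was fixed in advance. No paired analysis was possible because each group has 1 library and no result comes from a test. With 1 library per genotype and assay, a difference between mice and a difference between genotypes cannot be told apart. The depth of the libraries is unknown, and a peak missing from a list may lie just under its threshold.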
